A study of Canis lupus familiaris with 36 samples.

Results

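Peripheral T-cell lymphoma (PTCL) was compared with T-zone lymphoma (TZL) in pet dogs, using the tumours whose disease state label was PTCL (4 dogs) or TZL (9 dogs). These 13 dogs were chosen by that label alone from 35 dogs with lymphoma, measured on 36 Affymetrix canine arrays, and all 13 carried the T phenotype label. Each array measured RNA from 1 primary tumour, dispersed mechanically and passed through a filter. Numbers such as PTCL 2 or TZL 5 only name a dog, in the order of deposition.

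The PTCL dogs were a female Boxer aged 8 (PTCL 1), a male Golden Retriever aged 9 (PTCL 2), a male Boxer aged 6 (PTCL 3) and a female Bichon Frise aged 14 (PTCL 4). The labels give the age at diagnosis without its unit. PTCL 1 to 3 were labelled high grade and PTCL 4 intermediate grade. The TZL dogs were all labelled low grade, 6 males and 3 females aged 7 to 11, and 8 of the 9 were Golden Retrievers (TZL 2 was a Mastiff). An effect of subtype therefore cannot be told apart from one of grade, and breed was nearly as uneven. Other groups of the series serve only as reference points. They were 4 dogs of the T phenotype with the label LBT, which the labels do not spell out, 10 with diffuse large B-cell lymphoma (DLBCL), 5 with marginal zone lymphoma (MZL) and 2 labelled BL.

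T-zone lymphoma is an indolent disease in which mature T cells widen the zones between the follicles of a lymph node, and in the dog its cells are known for having lost surface CD45, the phosphatase encoded by PTPRC. It is common in Golden Retrievers. Peripheral T-cell lymphoma, not otherwise specified, is an aggressive and heterogeneous group of mature T-cell tumours that effaces the node and divides fast, and it is common in Boxers, in which it is mostly made of CD4+ cells.

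Values are log2 intensities, and a value of 4 (an intensity of 16) was taken as the minimum that counts as measured. A set of 4 arrays, PTCL 3 and TZL 1, 2 and 7, stood apart by a 3′ actin control between 14.03 and 14.45, against 10.80 to 11.77 on the other 9. The labels do not record what these arrays share. The markers of T cells were bright in both groups, and CD3E, the signalling chain that defines a T cell, lay between 9.06 to 12.48 in PTCL and between 11.25 to 12.24 in TZL. PTCL 4 was the dog with the weakest T cell signal. The summed intensity of its 8 measured T cell markers was 7337, against 18100 to 25840 in the other PTCL dogs and 17537 to 27928 in TZL. In RNA from such a mixture of tumour cells, fewer cells of a type and less RNA per cell cannot be told apart.

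Of 7500 genes tested, 1025 were called, which is 13.7% (limma, Benjamini-Hochberg adjusted p under 0.05 over all genes), with 570 (7.6%) higher and 455 (6.07%) lower in PTCL. The differences below are mean log2 PTCL minus mean log2 TZL ± SE, and adjusted p is from this fit unless said otherwise. At least a 2-fold difference was reached by 728 of the called genes. In 516 genes (6.88%) the 4 PTCL and 9 TZL dogs did not overlap at all, and 422 of these were called. The median difference over all 7500 genes was 0.03. Without the 4 arrays of the set and the 2 DLBCL arrays like them, 556 genes were called. Without PTCL 2 the number was 587. The set holds 1 PTCL and 3 TZL dogs.

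Among the genes higher in PTCL, the largest differences formed a pattern in which 3 dogs were bright and PTCL 4 was not. GTSF1, a small zinc finger protein known from piRNA silencing in germ cells, had log2 intensities of 10.37, 10.64, 11.35 and 2.34 in PTCL 1 to 4. The TZL dogs had a lowest value of 2.11, a median of 2.50 and a highest of 2.93. All TZL dogs and PTCL 4 thus lay below the minimum and far below PTCL 1 to 3. The mean of all 4 PTCL dogs was at least 25.6-fold above the minimum (difference 6.19 ± 1.66, adjusted p = 0.0112). This call was lost without the array set (5.17, adjusted p = 0.118), without PTCL 2 (5.53, adjusted p = 0.0625) and without PTCL 3 (5.30, adjusted p = 0.0651), and adjusted p ran from 0.000789 to 0.118 over all alternatives. The LBT dogs had 10.87 to 11.70.

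The same division of the dogs was seen in 8 more of these 12 genes. AMPH, which encodes the endocytic protein amphiphysin, read 7.14, 11.42, 9.01 and 2.96 in PTCL 1 to 4 and 1.46 to 2.49 in TZL (at least 12.4-fold, difference 5.54 ± 0.78, adjusted p = 1.72e-05). SNAP91, a clathrin assembly protein, read 7.89, 9.32, 10.18 and 3.12 against 1.93 to 2.64 (at least 12.3-fold, adjusted p = 1.29e-06). In both genes PTCL 4 lay slightly above the highest TZL dog but below the minimum. ANK3, the membrane anchor ankyrin-G, was at least 10.1-fold higher (adjusted p = 2.20e-05), and 8 of its 8 probe sets had the same direction. NSG1, an endosomal sorting protein, was at least 9.14-fold higher (adjusted p = 1.52e-05) with PTCL 4 at 2.31. CCR9, the receptor that guides T cells to the gut and thymus, AKAP12, a kinase scaffold, and SMOC2, a secreted matrix protein, were also above the minimum in PTCL 1 to 3 alone. CCR9 read 6.77, 7.78, 8.34 and 1.54 against 1.20 to 1.61 (at least 4.30-fold, adjusted p = 0.000198), AKAP12 was at least 9.39-fold higher (adjusted p = 0.000412) and SMOC2 at least 7.22-fold (adjusted p = 5.78e-05). POU1F1, a pituitary transcription factor, read 7.28, 10.57, 4.90 and 1.74 against 1.36 to 1.94 (at least 4.36-fold, adjusted p = 0.00208). With only PTCL and TZL in the limma fit, these 8 genes kept their calls with larger adjusted p. It was 0.00516 for AMPH, 0.00376 for SNAP91, 0.00261 for ANK3 and 0.00806 for NSG1. For CCR9, AKAP12, SMOC2 and POU1F1 it was 0.00582, 0.00897, 0.0112 and 0.0169.

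A further 3 of the 12 largest differences did not follow that division. DPP4, the surface peptidase CD26, was above all TZL dogs by more than 3 log2 units in every PTCL dog, with 10.42, 9.61, 11.41 and 8.40. The TZL dogs had a lowest value of 3.47, a median of 4.69 and a highest of 5.37 (difference 5.46 ± 0.58, adjusted p = 1.53e-07). FBP1, a gluconeogenic phosphatase, read 6.11, 5.61, 9.31 and 7.98 and was below the minimum in all 9 TZL dogs (at least 9.54-fold, adjusted p = 8.96e-09), with PTCL 4 the second brightest. SPP1, the secreted matrix protein osteopontin, read 3.44, 10.77, 7.50 and 9.38, so that here PTCL 1 was the dog at the TZL level (at least 13.7-fold, adjusted p = 0.00222).

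**Figure D1:**
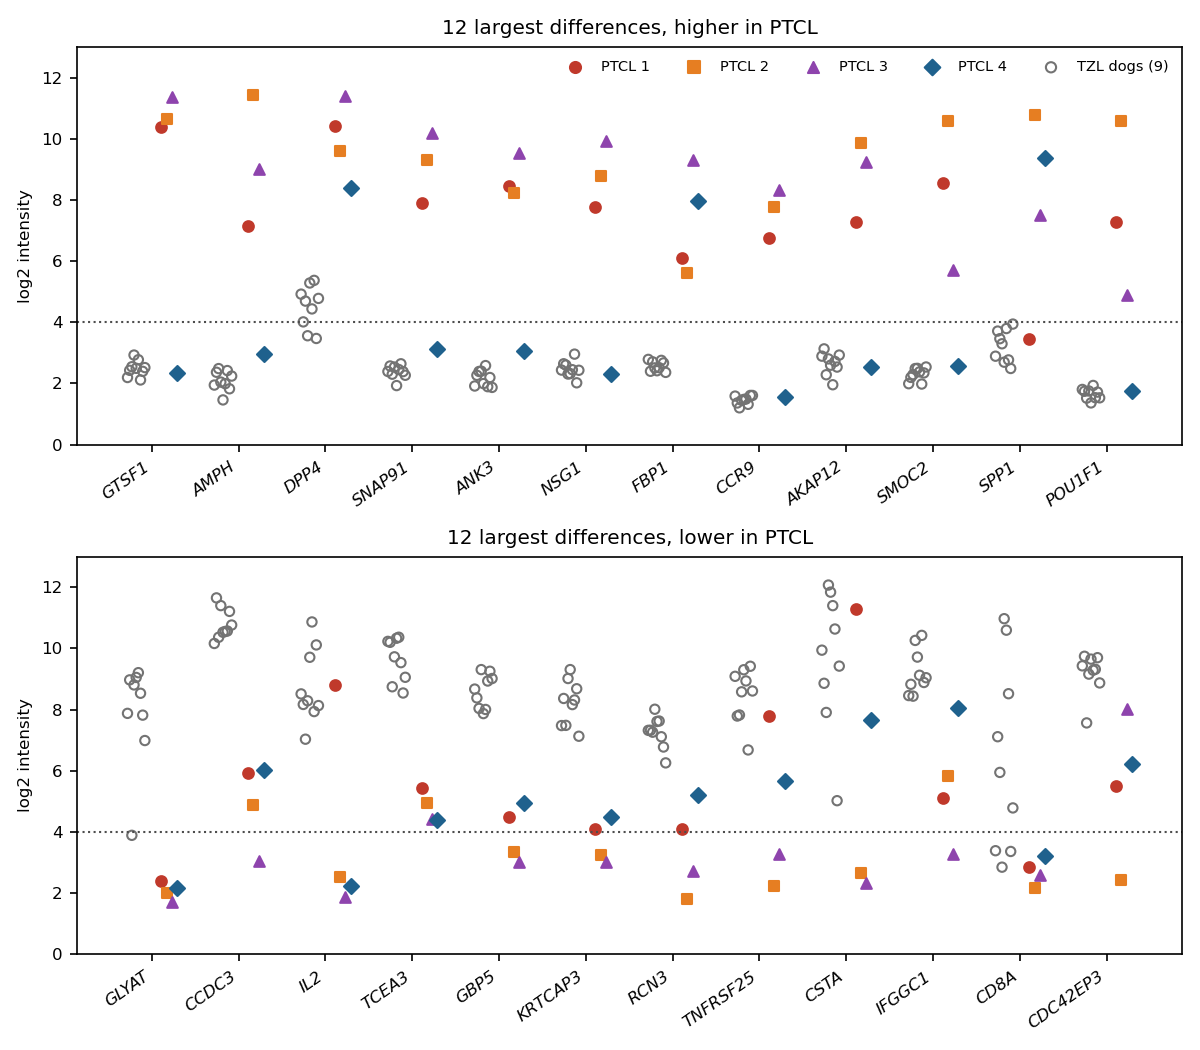
Log2 intensity of the 24 genes with the largest called differences, 1 point per dog, with PTCL 1 to 4 as filled symbols and the 9 TZL dogs as open circles; the dotted line is the minimum of 4. In the upper panel PTCL 4 (diamond) sits below the minimum for 9 of 12 genes. In the lower panel PTCL 1 (filled circle) sits within the TZL range for IL2, TNFRSF25, CSTA and, below the minimum, CD8A.

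The genes lower in PTCL were led by GLYAT and CCDC3, which were bright in nearly all TZL dogs. GLYAT, a mitochondrial enzyme that couples acyl groups to glycine, read 2.39, 2.00, 1.72 and 2.18 in PTCL, below the minimum in every dog. The TZL dogs had a lowest value of 3.89, a median of 8.53 and a highest of 9.21, with TZL 3 as the low dog (at least 15.0-fold lower in PTCL, adjusted p = 8.96e-09). CCDC3, a secreted coiled-coil protein, read 5.94, 4.88, 3.05 and 6.04 against 10.16 to 11.65 (difference -5.82 ± 0.59, adjusted p = 5.63e-08), with more than 4 log2 units between the highest PTCL and the lowest TZL dog. TCEA3, a transcription elongation factor, read 5.43, 4.94, 4.43 and 4.38 against 8.54 to 10.36 (adjusted p = 0.000135). Neither group overlapped the other in these 3 genes. KRTCAP3 (difference -4.50, adjusted p = 0.000354) and RCN3, a calcium-binding protein of the endoplasmic reticulum (-3.80, adjusted p = 1.07e-06), did not overlap either.

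In IL2, TNFRSF25 and CDC42EP3 1 PTCL dog lay within the TZL range. IL2, the T cell growth factor, read 8.79, 2.52, 1.88 and 2.23 in PTCL 1 to 4, and TZL had a lowest value of 7.03, a median of 8.29 and a highest of 10.86. PTCL 1 lay within the TZL range and the other 3 lay below the minimum (difference -4.89 ± 0.79, adjusted p = 0.000102). TNFRSF25, the death receptor DR3, which costimulates T cells, read 7.78, 2.24, 3.28 and 5.66 against 6.68 to 9.42 (adjusted p = 0.000165), again with PTCL 1 inside. CDC42EP3, an effector of the GTPase CDC42, read 5.50, 2.44, 8.02 and 6.21 against 7.56 to 9.74 (adjusted p = 4.76e-05), with PTCL 3 inside. CSTA, the protease inhibitor cystatin A, read 11.29, 2.64, 2.33 and 7.67 against 5.02 to 12.07 (-3.69 ± 1.19, adjusted p = 0.0358), with PTCL 1 and 4 inside. IFGGC1, named as on the array, had 5.09, 5.84, 3.28 and 8.06 against 8.44 to 10.42 (-3.67, adjusted p = 0.00993), with no overlap. CSTA was not called without PTCL 2 (-2.58, adjusted p = 0.232), PTCL 3 (-2.48, adjusted p = 0.216) or the array set (-2.41, adjusted p = 0.313), nor without TZL 4, 5, 6 or 7 (adjusted p 0.0620, 0.0632, 0.0586 and 0.0506; 0.00150 to 0.377 over all alternatives). IFGGC1 was not called without PTCL 3 (-2.91, adjusted p = 0.0760) or the array set (-2.91, adjusted p = 0.132; 0.00325 to 0.177 over all alternatives).

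Genes of cell division rose together in PTCL. Of 32 mitosis genes tested, 30 were called higher and none lower (93.8% called, beside 13.7% among all genes). The median difference was 2.71 beside 0.03 over all genes, and the other 2 mitosis genes, CENPN and HMMR, missed the threshold. CENPF, a kinetochore protein, read 7.94, 7.18, 8.94 and 7.51 in PTCL and had a lowest value of 1.98, a median of 4.34 and a highest of 5.48 in TZL (difference 3.98 ± 0.56, adjusted p = 1.94e-05). KIF11, the motor that separates spindle poles, read 8.83, 8.57, 8.98 and 9.05 against 2.99 to 7.05 (adjusted p = 5.78e-05). CDK1, the kinase that starts mitosis, read 9.10, 8.66, 9.50 and 9.10 against 4.65 to 7.57 (6.54-fold, adjusted p = 9.34e-05). No PTCL dog overlapped a TZL dog in these 3 genes, and the 4 PTCL dogs differed little in KIF11 and CDK1. KIF23, a motor of cytokinesis, had a difference of 3.12 (adjusted p = 0.000106) and TOP2A, the topoisomerase that anthracyclines poison, one of 3.14 (8.79-fold, adjusted p = 0.000524).

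The mean over the 32 mitosis genes was 7.29, 6.21, 8.16 and 7.71 in PTCL 1 to 4 and ranged from 3.27 to 5.98 in TZL. PTCL 4, of intermediate grade, was thus the second highest dog here, and PTCL 2, of high grade, was the lowest PTCL dog, only just above TZL 7. The TZL dogs spread over more than 2 log2 units, with TZL 5 at the bottom. The number of called mitosis genes stayed between 28 and 31 when any of the 13 dogs was left out and was 29 without the array set. With Golden Retrievers alone, which leaves PTCL 2 as the only PTCL dog, 2 mitosis genes and 10 of the 38 replication genes were called, and CDK1, KIF23 and TOP2A lost their calls (adjusted p 0.0819, 0.119 and 0.268; 4.08e-05 to 0.0819, 2.17e-05 to 0.119 and 9.78e-05 to 0.268 over all alternatives).

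**Figure D2:**
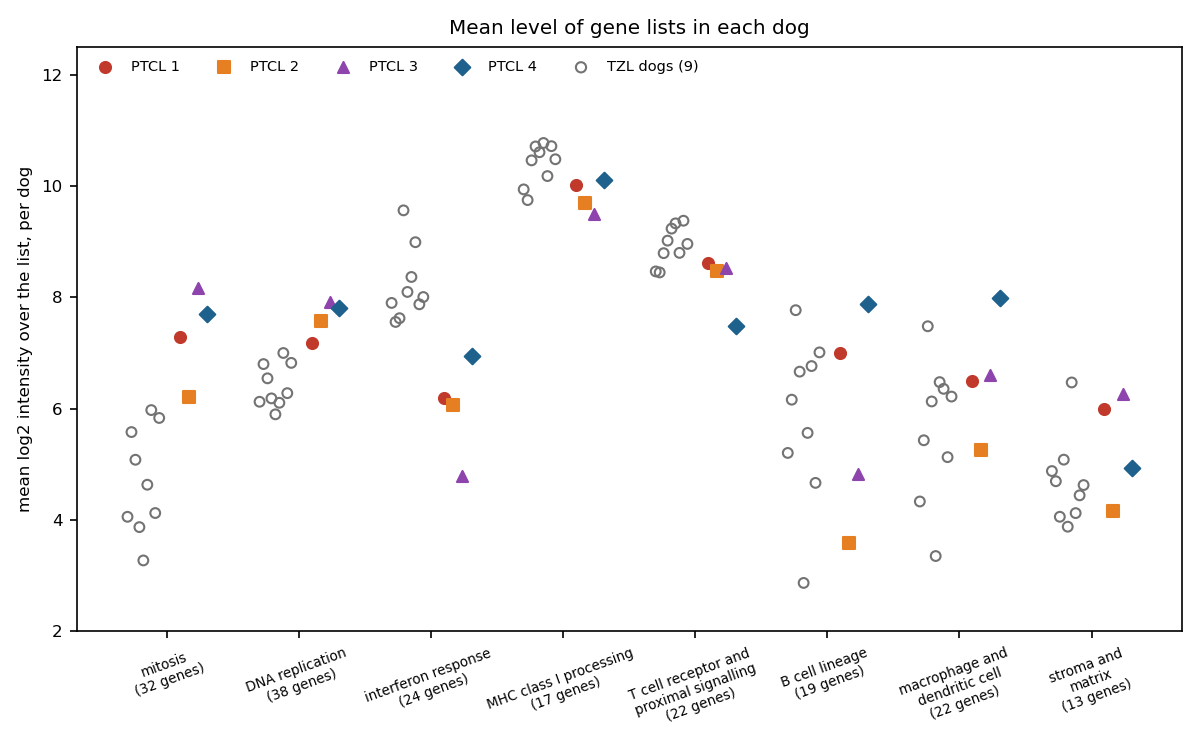
Mean log2 intensity over the tested genes of 8 lists, 1 point per dog, with PTCL 1 to 4 as filled symbols and the 9 TZL dogs as open circles. The PTCL dogs lie above all TZL dogs for mitosis and DNA replication and below all of them for the interferon response, and both groups overlap for the B cell, macrophage and stroma lists.

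DNA replication followed with smaller differences, with 23 of 38 genes called higher and none lower (median 1.03). The share called was 60.5%, beside 13.7% among all genes. POLE, the leading-strand polymerase, was below the minimum in all TZL dogs and read 4.60, 4.47, 5.53 and 4.84 in PTCL (at least 1.81-fold, adjusted p = 4.67e-06). GINS1, a part of the replicative helicase, had a difference of 2.22 ± 0.37 (adjusted p = 0.000165). The helicase subunits MCM6 (11.50, 12.12, 12.23 and 11.90 against 9.95 to 11.15, 2.53-fold, adjusted p = 5.78e-05) and MCM5 (4.93-fold, adjusted p = 8.77e-05) did not overlap between groups. Of 20 genes of nucleotide synthesis, 5 were higher and none lower (25% called). They were MTHFD2, a mitochondrial folate enzyme (difference 2.14, adjusted p = 0.000198), the ribonucleotide reductase subunits RRM1 (0.93, adjusted p = 0.00274) and RRM2 (2.06, adjusted p = 0.0103), TYMS, the thymidylate synthase (0.89, adjusted p = 0.00425), and the thymidine kinase TK1. RRM2 was not called with only PTCL and TZL in the fit (adjusted p = 0.0644), nor TYMS with array weights (0.0525). Of 17 genes of DNA damage and repair, 9 were higher and none lower (52.9% called). They were led by FANCD2, of crosslink repair (2.55, adjusted p = 0.000160), RAD51AP1 (2.28, adjusted p = 0.000316) and the checkpoint kinases CHEK1 (1.95, adjusted p = 0.000690) and CHEK2 (2.12, adjusted p = 0.00112). Without the array set 3 of the nucleotide and 5 of the repair genes were called, and RRM1 was not (0.79, adjusted p = 0.0584; 0.00132 to 0.138 over all alternatives).

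The regulators of the G1 phase were mixed, with 3 of 19 genes higher and 2 lower (3 called in all without PTCL 3 or the array set). The share called was 26.3%, beside 13.7% among all genes. CCNE2, a cyclin that drives entry into S phase, read 7.75, 7.98, 8.78 and 8.18 in PTCL and 4.37 to 6.98 in TZL (adjusted p = 0.000104), and the kinase CDK4 had a difference of 0.81 (adjusted p = 0.0143). The phosphatase CDC25B went the other way, with 3.56, 2.30, 2.61 and 3.91 in PTCL, all below the minimum, and 5.64 to 6.74 in TZL (at least 4.73-fold lower, adjusted p = 7.79e-07). CDKN2D, an inhibitor of CDK4, was also lower (difference -1.66, adjusted p = 0.0126). The third higher gene was CDKN3. RB1, the retinoblastoma gene, was below the minimum in all dogs but PTCL 2 (4.04; adjusted p = 0.586). MYC was not called (8.74, 9.09, 7.37 and 7.07 against 7.56 to 9.90, difference -0.42 with a 95% interval of -1.39 to 0.56, adjusted p = 0.632), and of 22 genes of the MYC and ribosome biogenesis list only POLR1C was higher (0.98, adjusted p = 0.0186). CDK4, CDKN2D and POLR1C were not called without the array set (adjusted p 0.0744, 0.0993 and 0.181). CDK4 and POLR1C were lost without PTCL 3 (0.107 and 0.0804), and CDKN2D and POLR1C without PTCL 2 (0.0878 and 0.0562). Over all alternatives adjusted p was 0.00392 to 0.353 for CDK4, 0.00225 to 0.0993 for CDKN2D and 0.00854 to 0.227 for POLR1C.

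Of the T cell genes 6 of 21 surface antigens, 3 of 22 receptor and signalling genes and 2 of 14 transcription factors were called. For signalling genes and transcription factors this is close to the 13.7% called among all genes. PTPRC, the gene of CD45, read 11.37, 12.12, 11.50 and 10.99 in PTCL and had a lowest value of 3.14, a median of 9.46 and a highest of 10.67 in TZL (difference 2.69 ± 0.75, adjusted p = 0.0153). The groups did not overlap, although the highest TZL dog lay just below PTCL 4. TZL 5, at 3.14, was the only dog below the minimum, and the other 8 TZL dogs held between 8.61 and 10.67. The 3 probe sets of PTPRC had the same direction, with differences of 2.69 to 3.34. Without PTCL 2 the call was lost (2.48, adjusted p = 0.0678; 0.00117 to 0.199 over all alternatives). IL2RA, the receptor chain CD25, read 4.18, 2.39, 2.39 and 3.78 against 2.80 to 5.61 and was not called (adjusted p = 0.223). CR2, MKI67 and CDKN2A were not analysed here, since the annotation used paired no probe set with their symbol alone, and PAX5, TBX21 and KIT did not pass the filter.

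The co-receptors separated the TZL dogs from each other. CD8A, of the co-receptor of cytotoxic T cells, was below the minimum in every PTCL dog (2.87, 2.17, 2.61 and 3.23) and had a lowest value of 2.85, a median of 5.94 and a highest of 10.97 in TZL (at least 5.24-fold lower in PTCL, adjusted p = 0.0144). TZL 5, 6 and 7 were the bright dogs, with 10.97, 10.59 and 8.52, while TZL 1, 4 and 8 lay below the minimum like the PTCL dogs. CD8B, the partner chain, was high in the same 3 dogs (11.68, 11.28 and 10.95) and was not called (-3.34, adjusted p = 0.0681). CD4, the co-receptor of helper T cells, read 7.55, 7.30, 7.20 and 5.24 in PTCL and 3.05 to 8.61 in TZL (difference 1.12 with a 95% interval of -0.55 to 2.78, adjusted p = 0.412). TZL 3, 8 and 9 were its bright dogs, with 8.61, 8.58 and 8.42. The CD8A call was lost without the array set (-3.66, adjusted p = 0.0673) and without PTCL 2 (-3.49, adjusted p = 0.0576; 0.00517 to 0.242 over all alternatives).

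**Figure D3:**
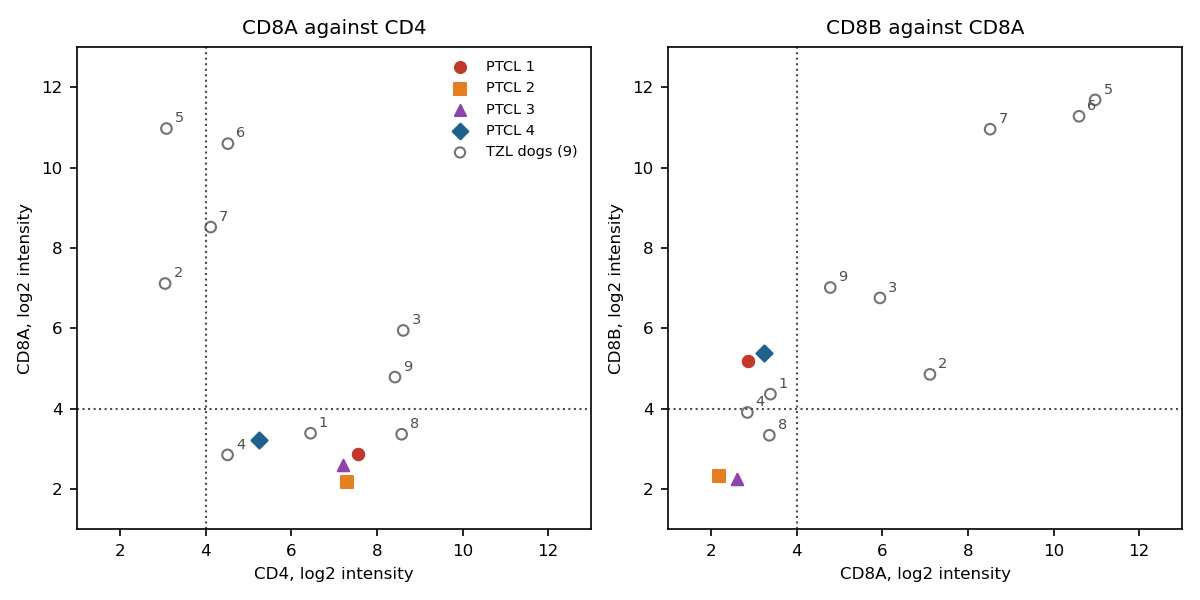
Log2 intensity of CD8A against CD4 (left) and of CD8B against CD8A (right), 1 point per dog, with the TZL dogs numbered and dotted lines at the minimum of 4. The 4 PTCL dogs lie together at CD8A below 4 and CD4 between 5.24 and 7.55, while TZL 5, 6 and 7 are high for CD8A and CD8B and TZL 3, 8 and 9 are high for CD4.

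Of 21 co-receptors and T cell surface antigens, 2 were higher (DPP4 and PTPRC) and 4 lower (3 called in all without PTCL 2), and the median was -0.95. The share called was 28.6%, beside 13.7% among all genes. Beside CD8A, the lower ones were CD226, an activating adhesion receptor (5.87, 5.08, 6.78 and 4.16 against 6.74 to 8.74, difference -2.17, adjusted p = 0.00644), CD52, the glycoprotein targeted by alemtuzumab, and CD40LG, the ligand with which helper T cells stimulate B cells. CD52 read 8.46, 5.98, 10.81 and 7.59 in PTCL and 10.71 to 11.70 in TZL (difference -2.82, adjusted p = 0.0332). PTCL 3 reached the level of TZL and PTCL 2 was the lowest. PTCL 4 was the low dog for CD40LG, at 5.49, while PTCL 1 to 3 read between 8.51 and 9.02 and TZL 8.72 to 10.41 (-1.65, adjusted p = 0.0340). Within the array set the difference of CD52 was -0.10 and that of CD226 -0.11, against -3.75 and -2.98 outside it. CD52 was lost without PTCL 1, 2 or 4 (adjusted p 0.0543, 0.20 and 0.0807; 0.00197 to 0.20 over all alternatives). CD40LG was lost without PTCL 4 (-0.84, adjusted p = 0.274), without the set (0.0521) and without TZL 4, 5, 6 or 8 (0.0568, 0.0528, 0.0551 and 0.0532; 0.0131 to 0.386 over all alternatives). CD5 (difference -0.71, 95% interval -2.16 to 0.73), CD28 (-0.30, -1.32 to 0.71) and CD3E (-0.72, -2.82 to 1.38) were not called, with adjusted p of 0.573, 0.757 and 0.716.

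In the T cell receptor and its proximal signalling, 3 of 22 genes were lower and none higher (median -0.43). SIT1, an adaptor that dampens receptor signals, read 6.60, 6.29, 7.26 and 5.64 against 8.63 to 9.78 (difference -2.73 ± 0.54, adjusted p = 0.000817), with no overlap. UBASH3A, another negative regulator, read 7.15, 2.39, 2.97 and 4.45 against 6.00 to 7.98 (adjusted p = 0.000984), with PTCL 1 inside the TZL range. GRAP2, an adaptor that links the receptor to its downstream signals, differed by -0.69 (adjusted p = 0.0315), and NFATC2, the transcription factor at the end of the calcium branch, by -1.31 (adjusted p = 0.0598). GRAP2 was lost without PTCL 2 or 4 or TZL 5 or 6 (adjusted p 0.101, 0.138, 0.0542 and 0.0516; 0.000274 to 0.138 over all alternatives).

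Among 14 T cell transcription factors, 2 were higher and none lower. TOX, a regulator of T cell development and exhaustion, read 8.75, 9.77, 9.13 and 7.65 in PTCL and had a lowest value of 1.19, a median of 5.26 and a highest of 6.19 in TZL (difference 3.87 ± 0.82, adjusted p = 0.00160), with no overlap and TZL 5 as the low dog. IKZF2, or Helios, read 8.46, 11.48, 7.94 and 5.97 against 2.47 to 7.35 (3.93, adjusted p = 0.000450), and only PTCL 4 overlapped TZL. SATB1, a chromatin organiser, divided the PTCL dogs, since PTCL 1 to 3 read 9.62, 10.71 and 9.84, above all TZL dogs (7.71 to 8.52), and PTCL 4 read 6.61, below all of them (adjusted p = 0.0828). Without PTCL 4 it was called (2.07, adjusted p = 0.000371; 0.000371 to 0.433 over all alternatives). GATA3, a regulator of helper T cells, was spread as widely, with 9.34, 10.24, 11.16 and 5.39 against 5.56 to 10.59 (adjusted p = 0.695). EOMES, of cytotoxic T cells, read 2.43, 2.53, 2.45 and 4.50 against 2.75 to 6.48 (adjusted p = 0.150). MYB, a factor of immature lymphocytes, was below the minimum in every TZL dog and read 4.62, 9.09, 6.35 and 3.53 in PTCL (at least 3.73-fold, adjusted p = 1.79e-05), whereas DNTT, the template-free polymerase of such cells, was below the minimum in all 13 dogs (highest 3.08, in PTCL 1; adjusted p = 0.939). BCL6, of follicular helper and germinal centre cells, was not called (difference 1.62, adjusted p = 0.191).

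The interferon response held the most genes called lower in PTCL among the 37 lists, a rank it shared with the cytokine receptor list (4 lower genes each) when the array set was left out. All 24 tested genes had a lower mean in PTCL, and the median difference was -2.25. Of them 11 were called lower (45.8%, beside 6.07% called lower among all genes). GBP5, a GTPase induced by interferon gamma, read 4.48, 3.34, 3.03 and 4.93 in PTCL and had a lowest value of 7.87, a median of 8.67 and a highest of 9.31 in TZL (difference -4.66 ± 0.51, adjusted p = 3.32e-07). IRF1, the transcription factor behind much of that response, read 7.59, 5.95, 5.52 and 7.46 against 8.61 to 9.63 (5.99-fold lower, adjusted p = 0.00104). PARP9 (5.58, 4.63, 4.74 and 6.70 against 7.93 to 9.55, 9.15-fold lower, adjusted p = 0.000391) and its relative PARP14 (-2.41, adjusted p = 0.00973) also had no overlap. Among the 24 genes 13 had none, beside 6.88% of all genes. The other called genes were SP100, USP18, XAF1, ISG20, EPSTI1, IRF7 and ISG15. The mean over the 24 genes was 6.20, 6.06, 4.79 and 6.95 in PTCL 1 to 4 and 7.56 to 9.56 in TZL. PTCL 3 was lowest and PTCL 4 nearest to TZL. Without PTCL 2 or without the array set 4 of the genes were called, and without PTCL 3 5 were. The call of PARP14 was among those lost, with adjusted p of 0.05003 without PTCL 2 and 0.0895 without the set (0.00258 to 0.0935 over all alternatives).

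Several genes of cytokine signalling and of the class I immunoproteasome, which cuts peptides for display to CD8 T cells, were lower as well. Of 22 cytokine receptor and JAK-STAT genes, 5 were lower and 1, IL6ST, higher (27.3% called, beside 13.7% among all genes). IFNGR1, a chain of the interferon gamma receptor, read 8.10, 6.94, 8.26 and 8.05 against 9.03 to 10.44 (3.15-fold lower, adjusted p = 0.00223). CISH, a feedback inhibitor induced by IL2, read 2.13, 1.65, 1.67 and 4.36 against 2.97 to 8.64 (difference -3.18, adjusted p = 0.000690), and the related SOCS2 had a difference of -1.77 (adjusted p = 0.0103). With values under 4 raised to 4, SOCS2 differed by only -0.43 and was not called (adjusted p = 0.330). IL15RA had a difference of -1.40 (adjusted p = 0.000231), but all PTCL dogs and 5 of the 9 TZL dogs lay below the minimum. The fifth lower gene was STAT4. In the class I list 5 of 17 genes (29.4%) were lower and none higher (3 without the array set). They were the immunoproteasome subunits PSMB10 (8.79, 7.56, 7.70 and 9.01 against 9.70 to 10.77, 3.67-fold lower, adjusted p = 0.000208) and PSMB8 (2.57-fold, adjusted p = 0.000817), the proteasome activators PSME1 (1.79-fold, adjusted p = 0.00452) and PSME2, and NLRC5, the transactivator of class I genes (-1.24, adjusted p = 0.0201). NLRC5 was lost without PTCL 1, 3 or 4 or the set (adjusted p 0.0637, 0.0604, 0.0870 and 0.0693; 0.00539 to 0.890 over all alternatives), and SOCS2 without the set (0.0692; 0.00518 to 0.334). None of 16 class II genes was called by limma (6 had an unadjusted p under 0.05), including DLA-DRA (difference -0.34, adjusted p = 0.340) and the transactivator CIITA (-0.68, adjusted p = 0.534).

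Costimulation and effector genes differed one by one. CTLA4, an inhibitory receptor of activated and regulatory T cells, read 9.48, 10.66, 6.53 and 7.92 in PTCL and 2.96 to 7.88 in TZL (difference 2.98 ± 0.94, adjusted p = 0.0315). Its ligand CD80 was lower, with 6.63, 5.54, 6.32 and 8.14 against 8.11 to 9.80 (4.95-fold, adjusted p = 0.00509). These were the 2 called of 12 genes of that list (16.7%, beside 13.7% among all genes), in which SLAMF1 (-1.17, adjusted p = 0.0658) and BTLA (1.12, adjusted p = 0.218) were not. PTCL 3 was the one PTCL dog inside the TZL range for CTLA4. FASLG, the death ligand of cytotoxic T cells, read 5.35, 2.77, 3.17 and 3.34 in PTCL and had a lowest value of 5.63, a median of 7.16 and a highest of 8.55 in TZL (difference -3.42 ± 0.55, adjusted p = 9.34e-05), and CST7, an inhibitor of granule proteases, was 4.65-fold lower with values under 4 raised to 4 (adjusted p = 0.00239). Neither gene overlapped between groups, and these were the 2 called of 11 cytotoxic and NK genes (18.2%, again near the share among all genes). KLRD1, the receptor CD94, and CTSW, cathepsin W, were not called (adjusted p 0.0714 and 0.0944). The CTLA4 call was lost without PTCL 1 or 2 or TZL 5 or 8 (adjusted p 0.0885, 0.177, 0.0592 and 0.0556; 0.00775 to 0.177 over all alternatives). KLRD1 was called without TZL 5 (0.0150) or TZL 6 (0.0380), and SLAMF1 without PTCL 3 (0.0405) or TZL 3 (0.0457; 0.0150 to 0.363 and 0.00561 to 0.277 over all alternatives).

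The chemokines that hold T cells in the T zone, CCL19 and CCL21, made by its stromal cells, were both lower. CCL21 read 9.21, 2.86, 2.60 and 5.33 in PTCL and had a lowest value of 5.32, a median of 8.96 and a highest of 11.52 in TZL (difference -3.64 ± 0.84, adjusted p = 0.00349). CCL19 read 8.52, 3.75, 5.75 and 3.88 against 6.09 to 11.78 (adjusted p = 0.00328). PTCL 1 held the level of TZL for both, and PTCL 2 to 4 lay close to or below the lowest TZL dog. CCL19 was not called with array weights (adjusted p = 0.0501) or with only PTCL and TZL in the fit (0.0532). CCL17, a ligand that attracts CCR4+ T cells, was higher, with 7.02, 3.47, 8.51 and 9.50 against 2.46 to 6.57 (adjusted p = 0.00307), and only PTCL 2 lay within the TZL range. With CCR9 these were the 4 called of 15 genes (2 without the array set), which is 26.7%, beside 13.7% among all genes. CCR7, the receptor of CCL19 and CCL21, was not called (9.31, 4.74, 4.81 and 4.63 against 2.53 to 8.27, adjusted p = 0.869), and PTCL 1 was again its bright dog. Of 14 genes of recirculating and resting lymphocytes only ITGA6, the integrin alpha 6 chain, was called, as higher (6.97, 7.59, 10.46 and 8.64 against 2.63 to 6.65, adjusted p = 0.0128). IL7R and S1PR1, the receptors for IL7 and for the lipid that draws lymphocytes out of the node, had differences of -1.23 and -1.47 (adjusted p 0.223 and 0.191). S1PR1 was called without PTCL 1 (-2.29, adjusted p = 0.0381; 0.0381 to 0.620 over all alternatives). CCL21, CCL17 and ITGA6 were lost without the array set (adjusted p 0.101, 0.0616 and 0.111), and ITGA6 without PTCL 3 (0.0844); over all alternatives adjusted p was 3.35e-05 to 0.108, 0.000196 to 0.993 and 0.00191 to 0.293.

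Genes of other cells in the tissue were examined beside these. Of 19 B lineage genes none was called by limma (1 had an unadjusted p under 0.05). MS4A1, or CD20, read 9.97, 6.80, 9.29 and 10.80 in PTCL and 2.91 to 10.55 in TZL (adjusted p = 0.596), and CD79A, of the B cell receptor, had 7.69, 3.48, 3.79 and 8.71 against 5.42 to 8.65 (adjusted p = 0.275). The summed intensity of 7 B cell markers was 2281, 159.4, 786.7 and 4215 in PTCL 1 to 4 and 355.0 to 3623 in TZL, so that PTCL 4 held the most and PTCL 2 the least of the 13 dogs. PAX5 was below the minimum in all of them. Of 22 macrophage and dendritic cell genes 4 were higher and none lower (18.2% called, near the 13.7% among all genes). The number called was 2 without PTCL 2 and 1 without PTCL 3 or the array set. The 4 genes were CD14 (4.00, 5.83, 6.32 and 6.35 against 2.33 to 4.46, adjusted p = 4.76e-05), CD68 (1.98, adjusted p = 0.0219) and the lysosomal proteases CTSD (1.74, adjusted p = 0.0241) and CTSB (0.87, adjusted p = 0.0388). The sum of 9 macrophage and dendritic markers ran from 5782 to 10247 in PTCL and from 260.9 to 10711 in TZL, where TZL 5 was the lowest. KDR, an endothelial receptor of VEGF, FN1, a matrix protein, MMP9, a matrix protease of neutrophils and macrophages, and ITGB1, the integrin beta 1 chain, were the only called genes of their lists (1 each of 4 endothelial, 13 stromal, 7 neutrophil and mast cell and 15 integrin and adhesion genes). KDR read 2.41, 8.86, 4.39 and 3.94 in PTCL and was below the minimum in all TZL dogs (at least 1.87-fold), MMP9 read 2.43, 10.78, 5.62 and 6.55 and FN1 5.42, 4.69, 6.67 and 7.53, while ITGB1 was lower (-1.96). Adjusted p was 0.00872, 0.0172, 0.0304 and 0.0280. CDH5, VWF, TEK and EMCN, which mark endothelium, and DCN and PDGFRB, which mark stroma, were below the minimum in every dog. The endothelial markers PECAM1 and KDR and the stromal markers COL1A1, COL1A2, COL3A1 and LUM reached it in at least 1 dog. The summed intensity of the 6 endothelial markers was 158.5 to 897.3 in PTCL and 42.1 to 302.6 in TZL. That of the 6 stromal markers was 47.2 to 447.8 in PTCL and 39.3 to 720.3 in TZL.

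Most of these calls rested on few dogs. KDR and MMP9 were lost without PTCL 2 (1.07, adjusted p = 0.119, and 1.29, adjusted p = 0.238), the dog in which both were brightest. CD68, CTSD and ITGB1 were lost without PTCL 2 (adjusted p 0.0712, 0.130 and 0.131), without PTCL 3 (0.108, 0.100 and 0.154) and without the set (0.179, 0.236 and 0.219). FN1 was lost without PTCL 3 or 4, TZL 5 or the set (0.0903, 0.101, 0.0518 and 0.157). CTSB was lost without the set (0.149), PTCL 1, 3 or 4 (0.0580, 0.0820 and 0.153) or TZL 1, 5 or 8 (0.0678, 0.0681 and 0.0668). Over all alternatives adjusted p was 3.68e-08 to 0.119 for KDR, 6.06e-06 to 0.238 for MMP9, 0.00948 to 0.214 for CD68, 0.00781 to 0.264 for CTSD, 0.00406 to 0.219 for ITGB1, 0.00380 to 0.585 for FN1 and 0.0172 to 0.627 for CTSB. The part of other cells in the differences above was not tested. CD14 kept its call in all 27 alternatives that could be run.

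Chromatin regulators rose in part, with 7 of 25 genes higher and none lower (4 called without PTCL 2 and 5 without the array set). The share called was 28%, beside 13.7% among all genes. EZH2, the methyltransferase of the polycomb complex, read 8.22, 9.06, 8.82 and 8.41 in PTCL and had a lowest value of 5.73, a median of 6.16 and a highest of 7.24 in TZL (difference 2.25 ± 0.31, adjusted p = 1.07e-05), with no overlap. SMARCB1, a subunit of the SWI/SNF remodeller (2.14-fold, adjusted p = 0.000248), and the deacetylase HDAC2 (1.81-fold, adjusted p = 0.000497) had no overlap either. DNMT3A, a DNA methyltransferase, read 6.33, 7.61, 8.97 and 4.25 against 3.40 to 5.73 (adjusted p = 0.00697), with PTCL 4 inside the TZL range, and was not called without PTCL 3 (1.41, adjusted p = 0.0855; 0.000108 to 0.0855 over all alternatives). The other 3 were DNMT1, HELLS and SMARCA4.

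Among genes that bear on treatment, ABCB1, the drug efflux pump P-glycoprotein, was lower in PTCL. It read 2.50, 2.07, 2.87 and 4.87 in PTCL and had a lowest value of 4.86, a median of 6.52 and a highest of 8.46 in TZL (5.49-fold with values under 4 raised to 4, difference -3.60 ± 0.59, adjusted p = 0.000114). PTCL 4 matched the lowest TZL dog and the other 3 were below the minimum. Of the 13 genes of that list 46.2% were called, beside 13.7% among all genes. ABCB1 was the only lower one and 5 were higher, among them TOP2A, TYMS and TUBB, the tubulin bound by vinca drugs (2.04-fold, adjusted p = 0.00264). Of 17 BCL2 family and death regulators, FASLG and BCL2L1, the survival protein BCL-XL, were lower (4.46, 4.29, 6.40 and 5.57 against 5.98 to 7.56, adjusted p = 0.0161) and none was higher, and BCL2 was not called (difference -0.87, adjusted p = 0.357). Called genes made up 11.8% of that list, beside 13.7% among all genes. Of 8 receptor tyrosine kinases and ligands KDR was higher and FLT3LG, a growth factor for dendritic cells, was lower (25% called). FLT3LG read 4.62, 2.86, 4.25 and 2.94 against 5.11 to 7.96 (difference -2.45, adjusted p = 0.000224). BCL2L1 was lost without PTCL 1 (0.0780) or PTCL 2 (0.118; 0.00522 to 0.118 over all alternatives).

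Metabolic genes moved by small amounts. Of 25 genes of oxidative phosphorylation 6 were higher and none lower (median 0.37), such as COX4I1 of cytochrome oxidase (1.41-fold, adjusted p = 0.0101), the ATP synthase subunits ATP5F1B (1.35-fold, adjusted p = 0.0103) and ATP5F1C (1.45-fold, adjusted p = 0.0107) and CYCS, cytochrome c (1.89-fold, adjusted p = 0.0111). These 4 did not overlap between groups. The 6 called genes were 24% of that list, beside 13.7% among all genes. Of the 25 genes 1 was called without the array set and 3 without PTCL 3. Of 22 genes of glycolysis and hypoxia 3 were higher, with ENO1 (1.60-fold, adjusted p = 0.00406) and PGAM1 (1.51-fold, adjusted p = 0.0145) in the lead, and 2 lower, with ALDOC, an aldolase, first (4.11-fold lower, adjusted p = 0.00902). Called genes made up 22.7% of that list. Of these 22 genes 2 were called without PTCL 2 or without the array set, and 3 without PTCL 3 or TZL 5. COX4I1, ATP5F1B, ATP5F1C, ENO1 and PGAM1 were lost without the set (adjusted p 0.0696, 0.0883, 0.0616, 0.0668 and 0.108). ATP5F1B and PGAM1 were lost without PTCL 3 (0.0506 and 0.108), and ALDOC without PTCL 2 (0.0798). Over all alternatives the adjusted p of these 6 reached as high as 0.366, 0.258, 0.245, 0.151, 0.351 and 0.0798. MTOR was the only called gene of 17 in the PI3K and mTOR list (1.22, adjusted p = 0.000933). The lists for NF-kappaB (20 genes) and immediate early and stress genes (17) held no called gene by limma, with 2 and 0 at an unadjusted p under 0.05.

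The B lymphomas of the series hold a comparison of the same kind, high-grade DLBCL against low-grade MZL, with no dog in common. The difference of the 2 differences, PTCL minus TZL less DLBCL minus MZL, was called for 147 of 7500 genes (1.96%), 91 higher and 56 lower. Among the named genes the largest positive values were those of DPP4 (5.33 ± 0.78, adjusted p = 0.000181), AMPH (5.12, adjusted p = 0.00760), SNAP91 (5.09, adjusted p = 0.000925), CTLA4 (4.88, adjusted p = 0.0343) and CCR9 (4.79, adjusted p = 0.0149). CTLA4 ran in opposite directions, since DLBCL minus MZL was -1.91. The largest negative values were those of TCEA3 (-6.48 ± 1.08, adjusted p = 0.000937), GLYAT (-5.77, adjusted p = 1.22e-05), CCDC3 (-5.65, adjusted p = 9.82e-05), GBP5 (-4.42, adjusted p = 0.000485) and IL2 (-4.30, adjusted p = 0.0265), with DLBCL minus MZL at 1.64 for TCEA3. None of the 32 mitosis genes was called as different between the lineages by limma. An unadjusted p under 0.05 was reached by 12 of them, beside 1054 of all 7500 genes. The median difference of differences over the 32 genes was 1.42, towards the T lymphomas. The absence of calls therefore does not show equal differences. CENPF differed by 3.98 in the T and by 1.84 in the B lymphomas (adjusted p of the difference = 0.166) and TOP2A by 3.14 and 1.60 (adjusted p = 0.389). Among the 38 replication genes 3 were called as different, MCM5, MCM6 and POLE, with MCM5 at 2.30 against 0.26 (adjusted p = 0.0237). The number called was 42 without the array set, 61 without PTCL 2, 71 without PTCL 3, 89 without MZL 3, 96 without MZL 4 and 281 without PTCL 4.

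**Figure D4:**
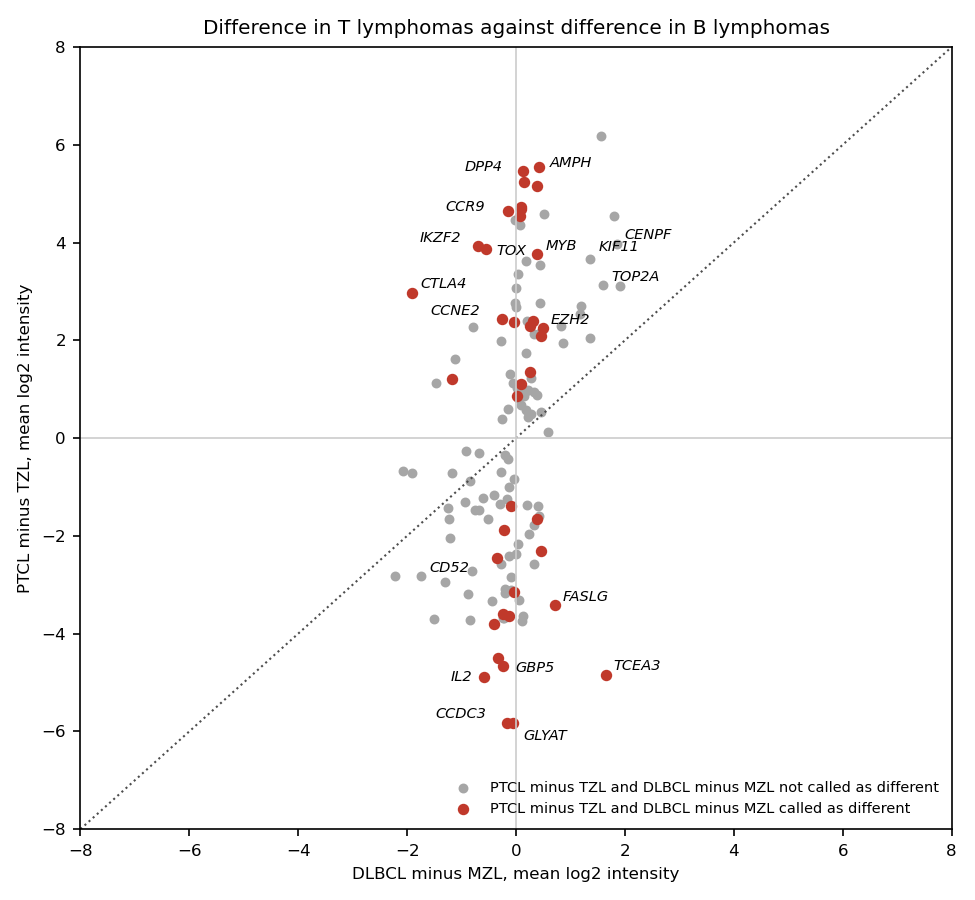
Mean log2 difference between PTCL and TZL (vertical) against that between DLBCL and MZL (horizontal) for the named genes that were tested, with the line of equality dotted and genes whose 2 differences were called as different in red. The mitosis genes CENPF, TOP2A and KIF11 are positive on both axes, while DPP4, AMPH, GLYAT and CCDC3 lie near 0 on the horizontal axis.

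Against the LBT dogs, the other T lymphoma of high grade, PTCL differed in 51 of 7500 genes (0.68%), 16 higher and 35 lower in PTCL. This comparison shares its PTCL dogs with that against TZL. Of 16 genes called in both, the mean of PTCL lay between those of TZL and LBT in all but 4, which had the same direction. MITF, a transcription factor of mast cells and macrophages, was higher in PTCL than in either (4.62, 7.57, 7.09 and 6.54 in PTCL, 2.97 to 4.91 in TZL and 3.73 to 4.42 in LBT, adjusted p = 0.000223 and 0.0172). CARHSP1, an RNA-binding protein, was lower than in either (6.71, 6.85, 5.36 and 6.73 in PTCL, 7.95 to 10.10 in TZL and 7.98 to 10.25 in LBT, adjusted p = 0.000121 and 0.0148). MOB2, of the Hippo-like kinase pathways (-1.47 against TZL and -2.07 against LBT, adjusted p = 0.00243 and 0.00636), and BDH1, a ketone body enzyme (-1.39 and -2.0, adjusted p = 0.0186 and 0.0329), were the other two. SMOC2 was lower in PTCL than in LBT (-4.16 ± 0.83, adjusted p = 0.0122), while being higher than in TZL. Against TZL, BDH1 was not called without the set, PTCL 2 or PTCL 3 (adjusted p 0.0605, 0.0665 and 0.0830; 0.00713 to 0.0830 over all alternatives). The number called against LBT was unsteady. It was 180 without PTCL 2, 85 without PTCL 3, 11 without PTCL 4, 30 without LBT 2 and 96 without LBT 4. With only these 2 groups in the limma fit it was 0, with 575 genes at an unadjusted p under 0.05.

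The PTCL dogs were less alike than the TZL dogs. The mean correlation of a dog's log2 values with the others of its group, across the 7500 genes, which are not independent of each other, was 0.869 to 0.896 for PTCL and 0.920 to 0.946 for TZL. PTCL 2 and PTCL 3 correlated more with the LBT dogs (0.904 and 0.892) than with TZL (0.832 and 0.842). PTCL 4 was the reverse, with 0.890 for TZL and 0.843 for LBT. PTCL 1 correlated about equally with TZL (0.901) and LBT (0.891). With the other PTCL dogs the values were 0.896, 0.869, 0.870 and 0.870 for PTCL 1 to 4. Each PTCL dog thus correlated more with TZL or with LBT than with its own group. To place each dog without using its own values to choose genes, the genes called without it were taken, and its position was set to 0 at the mean of the TZL dogs and 1 at the mean of the other PTCL dogs. The median position was 0.65, 0.91, 0.93 and 0.48 for PTCL 1 to 4 and ranged from -0.20 (TZL 5) to 0.25 (TZL 9) for TZL. PTCL 4 thus lay midway, and 48.4% of its 1085 genes were past the midpoint towards PTCL, against 63.2% to 74.3% in the other PTCL dogs. Genes called in the remaining dogs tend to overstate the difference between the groups. A position under 1 is therefore partly built in for any PTCL dog left out.

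**Figure D5:**
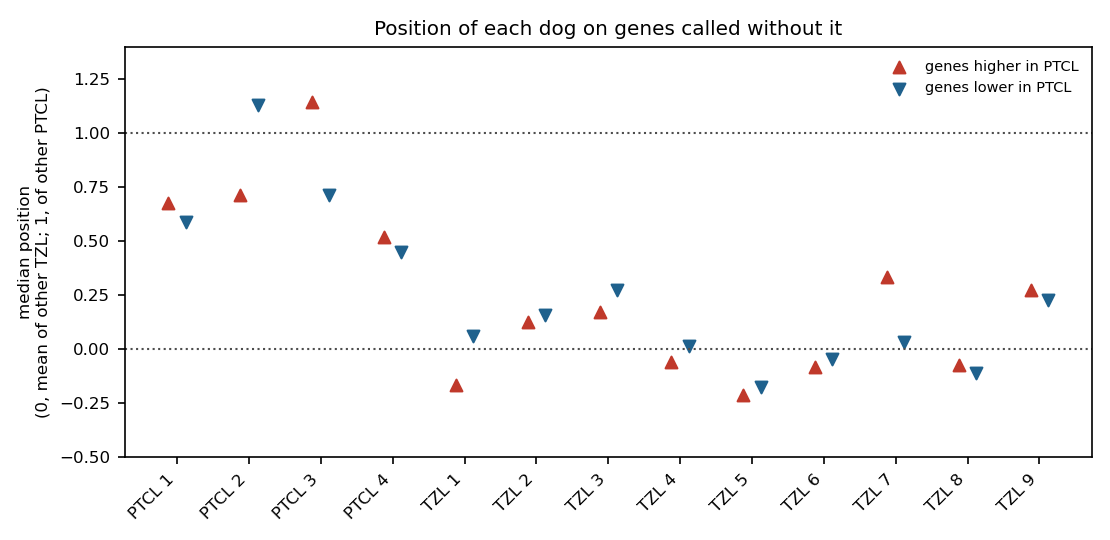
Median position of each of the 13 dogs over the genes called when that dog was left out, where 0 is the mean of the other TZL dogs and 1 the mean of the other PTCL dogs, separately for genes higher (red) and lower (blue) in PTCL. The PTCL dogs lie between 0.45 and 1.15 and the TZL dogs between -0.21 and 0.33.

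The genes that varied most within PTCL, chosen for their SD and so given without a test, split the dogs in several ways. SLC15A1, a peptide transporter, was bright in PTCL 2 and 3 (2.65, 11.56, 11.07 and 2.39 in PTCL 1 to 4). CMA1, the mast cell protease chymase, was bright in PTCL 1 alone (11.37, 2.30, 2.48 and 3.19), and CSTA was bright in PTCL 1 and 4. PTHLH, the hormone-like protein behind hypercalcaemia of malignancy, was bright in PTCL 1 to 3 and below the minimum in PTCL 4 (9.53, 11.57, 10.46 and 2.40), with 3.51 to 7.67 in TZL. LRRN1, a neuronal membrane protein, was bright in PTCL 2 (2.17, 10.63, 2.27 and 5.99), and GTSF1 completes the 6. Within TZL the most variable genes were the uncharacterised locus LOC609053 (2.20 to 13.10), CD8B, CCR8, LOC608379 (2.89 to 10.83), RBP4, a retinol carrier, and CD8A. CCR8, a chemokine receptor of skin-homing and regulatory T cells, was above 9 in TZL 5, 6, 7 and 8 and ranged from 2.45 to 10.46 overall. RBP4 was above 10 in 6 of the 9 TZL dogs and lowest in TZL 9 (3.80), while the PTCL dogs read 7.99, 5.05, 3.44 and 7.23.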

How the data were processed

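The deposited values were probe set intensities on a linear scale, made by the authors with GCRMA, per the submitters' processing notes (version not given in the sources used here). Intensities under 1 were set to 1 and log2 transformed. Of 43035 probe sets, 29254 had 1 gene symbol in the array's annotation, and each of 15115 genes was represented by its brightest probe set on average across the 36 arrays. Genes at log2 4 or more in at least 4 of 34 dogs (7500) were tested. The 2 arrays of 1 DLBCL case were averaged, and a single dog with the label NBNT was left out. A mean for each of 6 subtypes was fitted with limma 3.58.1 in R 4.3.3, so that all subtypes share 1 estimate of the spread. Tests were two-sided. Each dog was 1 replicate, and the number of arrays limits the precision. The share of probe sets at or above log2 4 was 34.3% to 35.5% in PTCL and 33.3% to 34.7% in TZL. GCRMA subtracts a modelled background, which spreads dim values on the log2 scale, so a group wholly below the minimum is given as a bound (the brighter mean against log2 4).

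The dogs, gene lists and rules were chosen with earlier results of these data known. Named genes were the 12 largest called differences in each direction with a brighter mean of at least log2 6, up to 4 genes of smallest p per list, 33 set genes, the 5 largest called differences of differences in each direction, genes called in the same direction against TZL and LBT, and the 6 most variable genes of each group. Genes given only by name to complete a count of called genes, and CD8B beside CD8A, are shown for that reason. Alternatives were other filters, a raised minimum, other scaling and variance models, other probe sets, the compared groups alone, the array set as a block or left out, covariates for sex and age, breed or the 3′ to 5′ controls, Golden Retrievers alone, and each dog left out. The scripts were tested on simulated data.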

Additional observations from a re-analysis of the deposited data

Results flagged for a closer look

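Among 274 groups of dogs examined for the named genes, 21 held 1 dog whose gap to the nearest other dog was larger than Dixon's 95% critical value for the group's range. Chance gives such a dog in about 0.05 of groups, but this rate does not hold for these genes, many of which were chosen for large differences or a large spread, so the count is a description. All values are log2 intensities. Among the PTCL dogs, PTCL 4 stood apart for 5 genes. It was the low dog for GTSF1 (2.34, others 10.37 to 11.35), CD40LG (5.49, others 8.51 to 9.02) and CD4 (5.24, others at least 7.2), and the high dog for EOMES (4.50) and PARP14 (6.68). PTCL 1 was the high dog for IL2 (8.79, others 1.88 to 2.52), CCR7 (9.31, others 4.63 to 4.81), CMA1 (11.37, others 2.30 to 3.19) and DNTT (3.08, below the minimum). PTCL 2 was low for IFNGR1 (6.94, others 8.05 to 8.26) and PTCL 3 for CARHSP1 (5.36, others 6.71 to 6.85).

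Among the TZL dogs, TZL 5 was low for PTPRC (3.14, others 8.61 to 10.67), TOX (1.19, others 4.69 to 6.19) and MS4A1 (2.91, others 7.28 to 10.55) and high for LRRN1 (2.56, below the minimum in all 9). TZL 3 was low for GLYAT (3.89, others 6.99 to 9.21), CDC42EP3 (7.56, others 8.87 to 9.74) and CARHSP1 (7.95, others 9.07 to 10.10). TZL 2 was low for CCR7 (2.53, others at least 5.6), TZL 6 high for CCL17 (6.57, others 2.46 to 3.90) and TZL 7 high for IFNGR1 (10.44, others 9.03 to 9.62).

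The difference between PTCL and TZL differed from that between DLBCL and MZL for 38 named genes by limma (adjusted p under 0.05). Among the genes of the largest differences it was 5.33 for DPP4, 5.12 for AMPH, 5.09 for SNAP91, 4.79 for CCR9, 4.77 for ANK3, 4.63 for NSG1, 4.6 for FBP1 and 4.47 for SMOC2. On the lower side it was -6.48 for TCEA3, -5.77 for GLYAT, -5.65 for CCDC3, -4.42 for GBP5, -4.30 for IL2, -4.16 for KRTCAP3, -3.51 for CDC42EP3 and -3.39 for RCN3. T cell, costimulation and transcription factor genes gave 4.88 for CTLA4, 4.63 for IKZF2, 4.43 for TOX, 3.37 for MYB, 2.38 for SATB1, 2.08 for MITF, -2.77 for CD80 and -4.13 for FASLG. Cytokine, antigen processing and myeloid genes gave -1.31 for IL15RA, -2.04 for IFNGR1, -1.65 for PSMB10, -2.10 for FLT3LG and 2.42 for CD14. Genes of the cell cycle, chromatin and drug transport gave 2.70 for CCNE2, -3.11 for CDC25B, 1.64 for POLE, 1.09 for MCM6, 2.04 for MCM5, 1.77 for EZH2, 1.01 for SMARCB1, 0.83 for HDAC2 and -3.36 for ABCB1.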

How the results depend on the processing

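The number of genes called between PTCL and TZL was within 1.5 times of 1025 except with every probe set tested (2267 of 18029), without the array set (556) and without PTCL 2 (587), and ran from 587 to 1085 when single dogs were left out. With Golden Retrievers alone, which keeps PTCL 2 as the only PTCL dog and assumes that it varies like the other groups, 2 mitosis genes and 10 replication genes were called. With every probe set tested these were 50 and 41. The difference of differences was called for 316 probe sets, 42 genes without the array set, 324 with Golden Retrievers alone and 61 (without PTCL 2) to 281 (without PTCL 4) on leaving out single dogs. With each array centred on its median it was called for 71 higher and 85 lower genes, against 91 and 56. PTCL against LBT gave 33 genes with the filter at log2 6, 96 with values under 4 set to 4, 146 probe sets, 82 with the set as a block, 0 by limma with only both groups in the fit (575 at an unadjusted p under 0.05), and 11 to 180 on leaving out single dogs. Of 137 named genes 106 were called. Of these, 28 lost their call without the array set, 22 with array weights, 21 without PTCL 2 and 18 without PTCL 3. With only PTCL and TZL in the limma fit, 17 lost their call. Among these 17 were PTPRC (adjusted p = 0.110), CD8A (0.114), CCL19 (0.0532), CCL21 (0.0656), CTLA4 (0.0538) and RRM2 (0.0644). The main fit takes its spread from all 6 subtypes.

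Signs reversed only in genes that were not called, apart from CCL17 with Golden Retrievers alone (-0.026). With Golden Retrievers alone CD5 (0.68), CD28 (1.52), MS4A1 (-1.43), MYC (0.62), BCL2 (0.95), IL7R (0.44) and DNTT (-0.13) reversed. MYC also did so without the array set (0.15) and with breed as a covariate (0.040), and CCR7 with array weights (0.62). On leaving out 1 dog the difference ran from -1.13 (without PTCL 3) to 0.011 (without PTCL 4) for CD3E, from -0.94 (PTCL 2) to 0.35 (PTCL 4) for CD28, from -1.46 (PTCL 4) to 0.070 (PTCL 2) for CIITA, from -0.13 (PTCL 3) to 1.80 (PTCL 4) for GATA3, from -0.043 (PTCL 1) to 0.20 (PTCL 2) for DNTT and from -1.41 (PTCL 1) to 0.15 (PTCL 4) for CCR7, which was also positive without PTCL 2, PTCL 3 or TZL 6. LOC608379 reversed with the mean of its probe sets (-0.069) and with its other probe set (-1.45). Where a call or sign was lost the cause was not tested. No paired analysis was possible because the replicate numbers only follow the order of deposition.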
